A study of Mus musculus with 9 samples.

Results

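Adipose tissue macrophage markers were followed in perigonadal white fat of mice with 2 different Lmna alleles. The 10 genes are Emr1, Csf1r and Cd68 (carried by macrophages in general), the lysozymes Lyz1 and Lyz2, the resident markers Cd163 and Mrc1, and the lipid-associated markers Itgax, Trem2 and Gpnmb. Members were found as probe sets whose only gene symbol is one of these 10, and they were summarised per gene. That gave 188 probe sets for the 10 genes, out of 208397 probe sets with a single symbol and 16299 genes. The 3 groups, of 3 arrays each, hold total RNA from mice aged 4 months: Lmna G609G/G609G homozygotes (G609G), Lmna LCS/LCS homozygotes (LCS), and wild type (WT). Lmna encodes lamins A and C of the nuclear envelope. The G609G allele is the mouse counterpart of the progeria mutation and yields progerin, a truncated lamin A, whereas the LCS allele is known to give lamin C and no lamin A. Both alleles act in the whole animal, in macrophages as well as in fat cells. Sex and strain are not given in the sources used here. Nothing in the labels ties the arrays to separate animals beyond the word biological, so p-values measure only how far these samples vary, and that variation may be technical.

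Macrophages are the main immune cells of fat. They take up dead cells and lipid, and they depend on the growth factors CSF1 and IL-34, which signal through the receptor encoded by Csf1r. Resident macrophages near blood vessels carry the scavenger receptor CD163 and the mannose receptor (Mrc1). Lipid-associated macrophages gather around dying fat cells in obesity and carry the lipid receptor TREM2, the lysosomal glycoprotein GPNMB and the integrin CD11c (Itgax). In bulk RNA, fewer macrophages and less of a transcript per macrophage cannot be told apart. Several members are also made elsewhere, Mrc1 in some endothelial cells, Itgax in dendritic cells and Gpnmb in cells such as osteoclasts and melanocytes.

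All values are the deposited log2 intensities, and a log2 difference of 1 is a doubling. The median intensity over all probe sets was 6.57 ± 0.06 in G609G, 7.23 ± 0.04 in LCS and 7.21 ± 0.06 in WT (SD, n = 3 arrays each). Because the G609G arrays were lower as a whole, the median log2 fold over the 11342 genes tested was -0.47 in G609G minus WT, against 0.05 in LCS minus WT. Each member is therefore given on the deposited scale and relative to the median gene, where each array's median shift is removed. Neither scale shows whether that shift belongs to the tissue or to the normalization. Adipocyte markers averaged 11.15 to 11.19 in G609G, 12.55 to 12.58 in LCS and 12.34 to 12.37 in WT over 7 genes. Transcripts of 2 neighbouring tissues moved with genotype. The 9 skeletal muscle genes averaged 11.74 to 11.83 in G609G, against 5.70 to 5.76 in LCS and 5.36 to 5.45 in WT. The 8 epididymis genes averaged 7.43 to 7.58 in G609G, against 12.05 to 12.07 in LCS and 12.41 to 12.52 in WT. These averages hide a split (limma adjusted p under 0.05). In G609G 7 of the 8 fell and 1 rose, where 71.3% and 8.26% of all genes did. In LCS 3 fell and 3 rose, where 13% and 22.5% of all genes did. Crisp1 averaged 12.84 in G609G, 11.11 in LCS and 12.73 in WT, and Lcn5 11.48, 11.86 and 13.38. The part of these tissues in the macrophage values was not tested. The number of arrays limits the precision.

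The macrophage markers moved in opposite directions under the 2 alleles, with exceptions. In G609G all 10 members fell relative to WT (limma adjusted p under 0.05), where 71.3% of all genes tested did. Their median log2 fold was -1.18, against -0.47 for all genes. The G609G arrays lay below all WT arrays for every member, as for 70.9% of all genes. Relative to the median gene 7 members fell, where 36.7% of all genes did, and Cd163, Gpnmb and Itgax did not pass the test. In LCS 8 members rose relative to WT, where 22.5% of all genes did, and Trem2 alone fell, where 13% of all genes did. The median member log2 fold in LCS was 0.36, against 0.05 for all genes, and Mrc1 did not pass the test. Of the 8, Itgax passed the intensity filter only through the LCS arrays, and its call held with no filter. The LCS arrays lay above all WT arrays for these 8, as they did for 32.8% of all genes, and below for Trem2, as for 19.4% of all genes. Relative to the median gene the LCS calls were again 8 higher and 1 lower, where 22.3% and 17.7% of all genes were called. All 10 members fell in G609G minus LCS, where 70.5% of all genes did, with a median log2 fold of -1.51 against -0.48. Relative to the median gene 9 of them fell in G609G minus LCS, where 36.9% of all genes did, Trem2 being the exception. The G609G arrays lay below the LCS arrays for all 10, as for 71.3% of all genes. By the methods' t-test, which asks for p of at most 0.05 and a fold of at least 1.5, 7 members were lower in G609G than in WT (41% of all genes), 3 higher in LCS than in WT (3.88%) and 9 lower in G609G than in LCS (43%). The G609G and LCS comparisons share the WT arrays.

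**Figure D1:**
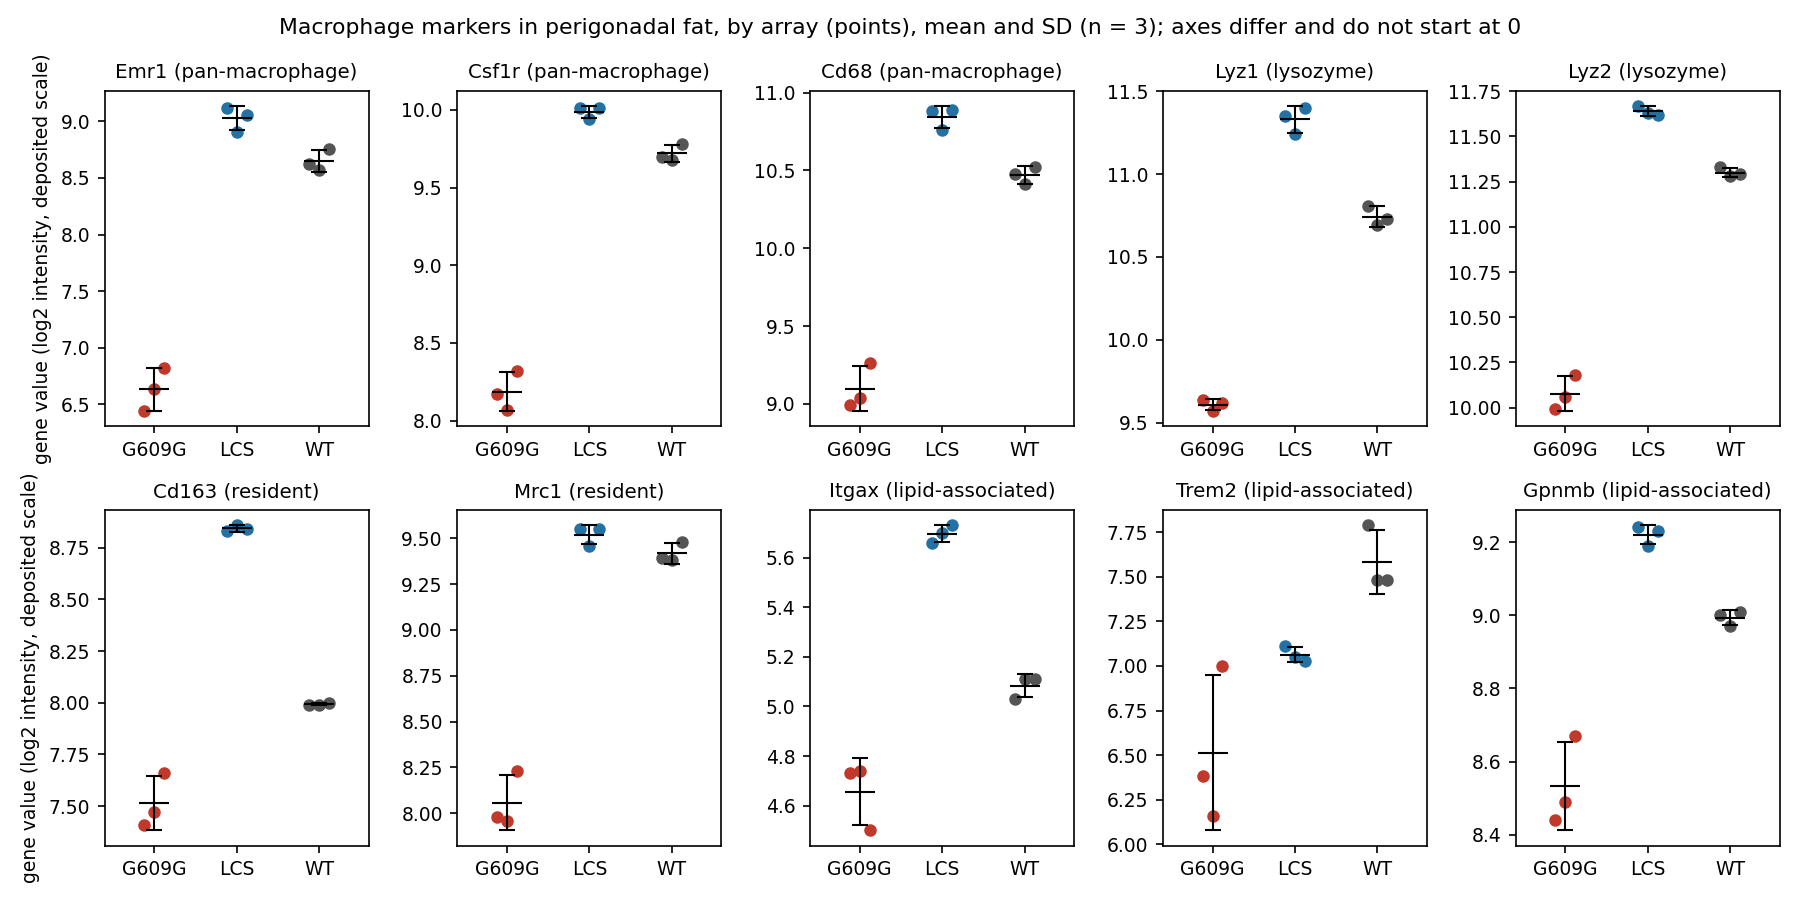
Deposited log2 intensity of each of the 10 members (vertical axis) on each array, G609G, LCS and WT from left to right; points are arrays and bars are group means. All G609G arrays lie below all WT arrays for every member, the LCS arrays lie above the WT arrays for 8 members, and for Trem2 they lie below.

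Emr1 encodes F4/80 (current symbol Adgre1), the adhesion receptor used to identify mouse macrophages. It measured 6.44, 6.64 and 6.82 log2 units on the G609G arrays, 9.12, 8.91 and 9.06 on the LCS arrays and 8.62, 8.57 and 8.76 on the WT arrays. Every G609G array lay below every WT array and every LCS array above, with no overlap among the 3 groups. In G609G minus WT the log2 fold was -2.02 (SE 0.097, limma adjusted p = 1.40e-10), that is 4.05-fold lower, the largest fall among the 10 members and at percentile 2.5 of all genes. Relative to the median gene it was still -1.56 (adjusted p = 3.5e-09). Emr1 rose by 0.38 in LCS over WT (SE 0.097, limma adjusted p = 0.00696).

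Csf1r, the CSF1 and IL-34 receptor on which macrophage survival depends, followed the same order. It measured 8.17, 8.07 and 8.32 in G609G, 10.01, 9.94 and 10.01 in LCS and 9.70, 9.68 and 9.78 in WT. The groups did not overlap. Its log2 fold was -1.53 in G609G minus WT (SE 0.066, limma adjusted p = 3.88e-11), or 2.89-fold lower, and 0.27 in LCS minus WT (adjusted p = 0.00561). Cd68, a glycoprotein of macrophage lysosomes, measured 8.99, 9.04 and 9.26 in G609G, 10.88, 10.76 and 10.89 in LCS and 10.48, 10.41 and 10.52 in WT. Again no array of one group reached the range of another. Its log2 fold was -1.37 in G609G minus WT (SE 0.065, limma adjusted p = 1.18e-10) and 0.37 in LCS minus WT (adjusted p = 0.000424). Relative to the median gene Csf1r was at -1.07 and Cd68 at -0.91 in G609G minus WT (limma adjusted p = 1.28e-09 and 1.02e-08), so the fall of all 3 pan-macrophage genes exceeded the general shift.

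Lyz1 and Lyz2 encode the antibacterial enzyme lysozyme, and in the mouse Lyz2 is the macrophage form while Lyz1 is known from Paneth cells of the gut. They are neighbours on chromosome 10 with near-identical transcripts, and 9 further probe sets carry both symbols, so the split of signal between them is uncertain. Lyz2 measured 9.99, 10.06 and 10.18 in G609G, 11.67, 11.63 and 11.62 in LCS and 11.33, 11.28 and 11.29 in WT. Lyz1 measured 9.64, 9.57 and 9.62 in G609G, 11.35, 11.24 and 11.40 in LCS and 10.81, 10.69 and 10.73 in WT. For both genes the 3 groups were separate, with G609G lowest and LCS highest. In G609G minus WT the log2 fold was -1.22 for Lyz2 and -1.13 for Lyz1 (limma adjusted p = 4.68e-12 and 3.04e-11), 2.34-fold and 2.19-fold lower. For LCS minus WT it was 0.34 for Lyz2 and 0.59 for Lyz1 (limma adjusted p = 2.91e-05 and 2.6e-07). Relative to the median gene Lyz2 was at -0.76 and Lyz1 at -0.67 in G609G minus WT (limma adjusted p = 4.7e-09 and 1.18e-07). On that scale they were at 0.30 and 0.55 in LCS minus WT (limma adjusted p = 6.17e-05 and 2.54e-06). The 9 shared probe sets ranged in deposited log2 fold from -1.30 to 0.31 in G609G minus WT. Of these 9, 8 lay below WT without overlap, where 53.8% of single-symbol probe sets above the intensity filter did. In LCS minus WT the shared probe sets ranged from 0.11 to 0.44. There 7 of 9 lay above WT without overlap, where 21.2% of single-symbol probe sets above the filter did.

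The sequence before the transcription start is shown for members whose changes the results turn on. RefSeq promoter sequences of build GRCm38.p6, which is not the build named for the arrays (mm9, per the submitters' processing notes), were found for 8 of the 10 members. The 250 bases upstream of each start were searched on both strands for AGGAAGT, the ETS core bound by PU.1, a factor that macrophage genes depend on, and for TGAGTCA, the AP-1 site. AGGAAGT stood in 7.69% of all 32851 promoters and in 3 of these 8, those of Lyz1, Lyz2 and Mrc1. TGAGTCA stood in 4.46% of all promoters and in 2 of the 8, those of Cd68 and Itgax, and no 2 matches overlapped. The lysozyme pair is shown because the genes moved together. Capitals mark the match, which reads ACTTCCT where AGGAAGT lies on the other strand.
Lyz1, chr10:117292869-117293118, minus strand: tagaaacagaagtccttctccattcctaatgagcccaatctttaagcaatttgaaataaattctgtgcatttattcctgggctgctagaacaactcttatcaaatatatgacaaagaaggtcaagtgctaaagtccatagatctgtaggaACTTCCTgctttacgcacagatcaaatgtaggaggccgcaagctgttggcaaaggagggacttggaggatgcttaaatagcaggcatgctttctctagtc
Lyz2, chr10:117282273-117282522, minus strand: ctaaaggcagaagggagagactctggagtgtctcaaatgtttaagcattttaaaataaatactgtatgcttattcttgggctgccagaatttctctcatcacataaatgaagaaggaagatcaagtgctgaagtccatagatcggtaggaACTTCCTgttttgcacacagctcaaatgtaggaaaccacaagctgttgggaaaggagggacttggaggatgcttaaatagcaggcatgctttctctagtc
Both lysozyme promoters hold the match at the same distance, 100 bases before the start. Compared position by position without gaps, they are identical at 152 of 250 bases (60.8%), at 92 of the last 100, and at every one of the last 50. An inserted or lost base would lower the count over the 250 bases. A match is a description of the letters, not a bound site.

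The resident markers did not move as a pair. Cd163, the haemoglobin-haptoglobin scavenger receptor, measured 7.41, 7.47 and 7.66 in G609G, 8.83, 8.86 and 8.84 in LCS and 7.99, 7.99 and 8.0 in WT. The arrays within each group lay close together, and the groups did not overlap. In LCS Cd163 rose by 0.85 over WT (SE 0.075, limma adjusted p = 6.31e-07), 1.8-fold, the largest rise among the members and at percentile 98.9 of all genes. In G609G its log2 fold was -0.48 (adjusted p = 3.76e-05), at percentile 49.2, and relative to the median gene it was -0.02 (SE 0.058, limma adjusted p = 0.801). With quantile normalization this G609G fold was 0.02 (adjusted p = 0.7), so the call rests on the deposited scale. Mrc1, the mannose receptor that binds sugar chains for uptake, measured 7.98, 7.96 and 8.23 in G609G, 9.55, 9.46 and 9.55 in LCS and 9.39, 9.38 and 9.48 in WT. G609G lay far below WT on every array, while LCS and WT overlapped. Mrc1 was 2.56-fold lower in G609G than in WT (log2 fold -1.36, SE 0.074, limma adjusted p = 5.15e-10), and -0.90 relative to the median gene (adjusted p = 2.12e-08). Its log2 fold in LCS minus WT was 0.11 (SE 0.074, limma adjusted p = 0.301), and it passed the test only with array weights (0.14, adjusted p = 0.00881).

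The promoters of the resident pair are printed because the genes split in both mutants, with Mrc1 holding the AGGAAGT match 211 bases before its start and Cd163 holding neither motif. These letters say nothing about binding elsewhere.
Cd163, chr6:124304401-124304650, plus strand: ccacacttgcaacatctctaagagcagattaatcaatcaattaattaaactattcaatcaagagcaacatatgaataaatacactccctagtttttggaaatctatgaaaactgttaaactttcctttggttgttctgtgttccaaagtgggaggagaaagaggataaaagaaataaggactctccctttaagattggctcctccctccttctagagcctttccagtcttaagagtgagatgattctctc
Mrc1, chr2:14229164-14229413, plus strand: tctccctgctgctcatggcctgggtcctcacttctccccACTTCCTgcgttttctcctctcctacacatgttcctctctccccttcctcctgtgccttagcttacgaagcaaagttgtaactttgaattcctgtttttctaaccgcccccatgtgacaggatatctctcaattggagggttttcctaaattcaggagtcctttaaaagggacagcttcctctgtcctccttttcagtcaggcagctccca

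The lipid-associated markers split as well. Trem2, the lipid-sensing receptor of phagocytes, measured 6.38, 6.16 and 7.0 in G609G, 7.11, 7.05 and 7.03 in LCS and 7.79, 7.48 and 7.48 in WT. Both mutants lay below WT on every array, and the highest G609G array, at 7.0, came close to the lowest LCS array, at 7.03. In LCS minus WT the log2 fold was -0.52 (SE 0.165, limma adjusted p = 0.0236), at percentile 5.4 of all genes. The LCS call was lost with quantile normalization (-0.47, adjusted p = 0.0556), without WT replicate 1 (adjusted p = 0.164), without WT replicate 2 (0.0656) and without LCS replicate 3 (0.113). In G609G minus WT it was -1.07 (SE 0.165, limma adjusted p = 3.35e-05), or 2.1-fold lower, and -0.61 relative to the median gene (adjusted p = 0.00608). Trem2 had the widest spread among the members, with an SD of 0.44 over the G609G arrays. Its G609G minus LCS fold of -0.55 (limma adjusted p = 0.00711) was -0.05 relative to the median gene (adjusted p = 0.781) and 0.03 with quantile normalization (0.883), and its call was lost without G609G replicate 1 (-0.34, adjusted p = 0.14) or 2 (-0.23, adjusted p = 0.233).

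Gpnmb, a transmembrane glycoprotein of lysosome-rich macrophages, measured 8.44, 8.49 and 8.67 in G609G, 9.24, 9.19 and 9.23 in LCS and 9.0, 8.97 and 9.01 in WT. The groups were separate. In LCS it rose by 0.22 over WT (SE 0.065, limma adjusted p = 0.0158), a call lost without WT replicate 2 (adjusted p = 0.0931) or LCS replicate 1 (0.0646). In G609G minus WT its log2 fold was -0.46 (SE 0.065, limma adjusted p = 1.41e-05), at percentile 50.4 of all genes, and -0.001 relative to the median gene (adjusted p = 0.991). Quantile normalization gave -0.09 for that fold (limma adjusted p = 0.081).

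Itgax encodes CD11c, an integrin of dendritic cells and of macrophages that move into fat. It measured 4.73, 4.74 and 4.50 in G609G, 5.66, 5.70 and 5.73 in LCS and 5.03, 5.11 and 5.11 in WT. The order was the same as for Emr1, with no overlap, but near the dim end of the array. Its means of 4.66 in G609G and 5.08 in WT both lay under the intensity filter of 5.09, which it passed only through the LCS arrays, where it is high. Folds of so dim a gene may understate the change. The log2 fold in LCS minus WT was 0.61 (SE 0.093, limma adjusted p = 0.000127). With no filter on intensity, when its entry did not depend on LCS, the fold was again 0.61 (adjusted p = 0.000155). In G609G minus WT its log2 fold was -0.43 (SE 0.093, limma adjusted p = 0.000747), -0.26 without G609G replicate 3 (adjusted p = 0.0275), and 0.04 relative to the median gene (adjusted p = 0.76). Over the 17 of its 34 probe sets that passed the intensity filter the folds were -0.79 in G609G minus WT and 1.13 in LCS minus WT. That summary was chosen after the data were seen, and it favours probe sets that are high in LCS: probe set 5153678, for one, averaged 3.97 in G609G, 6.97 in LCS and 5.1 in WT.

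The Itgax promoter, in which capitals mark a TGAGTCA 56 bases before the start, and that of Trem2, which holds neither motif, are shown because these genes moved in opposite directions in LCS.
Itgax, chr7:128129300-128129549, plus strand: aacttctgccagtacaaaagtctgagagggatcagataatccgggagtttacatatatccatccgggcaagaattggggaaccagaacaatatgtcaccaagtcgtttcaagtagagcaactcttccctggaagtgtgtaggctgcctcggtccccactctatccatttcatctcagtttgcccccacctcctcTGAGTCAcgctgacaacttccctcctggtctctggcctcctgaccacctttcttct
Trem2, chr17:48346151-48346400, plus strand: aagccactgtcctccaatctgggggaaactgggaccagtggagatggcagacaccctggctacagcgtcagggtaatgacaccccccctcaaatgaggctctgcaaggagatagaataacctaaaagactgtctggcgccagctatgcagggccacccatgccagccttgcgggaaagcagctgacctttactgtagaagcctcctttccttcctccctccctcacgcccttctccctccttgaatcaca

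**Figure D2:**
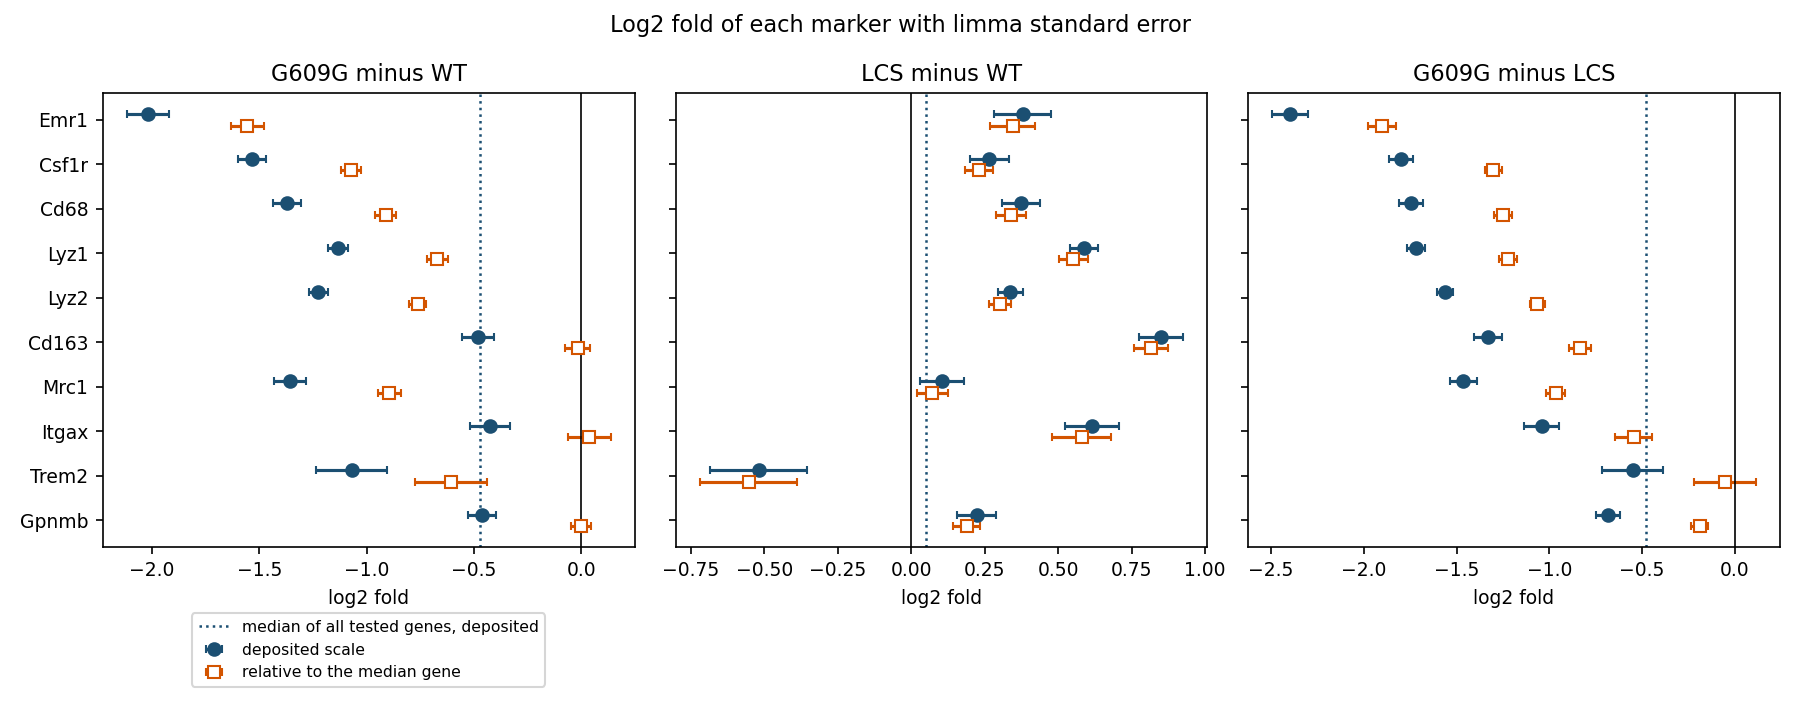
Log2 fold of each member for the 3 comparisons of genotypes, on the deposited scale and relative to the median gene; bars are 1 SE from limma. Emr1 lies lowest in G609G minus WT at -2.02 and Cd163 highest in LCS minus WT at 0.85, while Cd163, Gpnmb and Itgax lie at -0.02, -0.001 and 0.04 relative to the median gene in G609G minus WT.

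Resident and lipid-associated markers were set against each other within each array, which removes any uniform offset between arrays. The mean of Itgax, Trem2 and Gpnmb minus the mean of Cd163 and Mrc1 was -1.18, -1.25 and -1.22 in G609G, -1.86, -1.85 and -1.86 in LCS and -1.42, -1.50 and -1.54 in WT. The sign of this level has no meaning, since intensities of different probes are not comparable, but its differences between groups do. The G609G arrays lay above and the LCS arrays below the WT arrays, without overlap. The difference was 0.27 in G609G minus WT and -0.37 in LCS minus WT, and between the mutants it was 0.64 in G609G minus LCS, given without a test. The direction was the same in each alternative tried, but the size depended on the members in the score. Without Itgax the differences were 0.15 in G609G minus WT and -0.63 in LCS minus WT. With Trem2 and Gpnmb against Mrc1 alone they were 0.59 in G609G minus WT and -0.25 in LCS minus WT.

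Single members show which genes carry that score. Gpnmb minus Mrc1 was 0.46, 0.53 and 0.43 in G609G, -0.32, -0.28 and -0.32 in LCS and -0.40, -0.40 and -0.47 in WT. That is a difference of 0.89 in G609G minus WT and 0.12 in LCS minus WT, with no overlap in either. Gpnmb minus Cd163 was 1.03, 1.02 and 1.01 in G609G, 0.41, 0.33 and 0.39 in LCS and 1.01, 0.98 and 1.01 in WT. G609G and WT overlapped here, with a difference of 0.02, whereas LCS was lower than WT by a difference of -0.63. In G609G minus WT, Itgax minus Mrc1 differed by 0.93 without overlap and Trem2 minus Mrc1 by 0.29 with overlap. Itgax minus Cd163 differed by 0.05 with overlap. Trem2 minus Cd163 went the other way, at -0.59, with every G609G array below every WT array. In LCS minus WT these differences were, in the same order, 0.51, -0.63, -0.24 and -1.37, all without overlap. Within the resident pair, Cd163 minus Mrc1 differed by 0.88 between G609G and WT and by 0.74 between LCS and WT, with every mutant array above every WT array. Within the lipid-associated genes, Gpnmb minus Trem2 differed by 0.61 in G609G minus WT and by 0.74 in LCS minus WT, again with every mutant array above every WT array. Gpnmb and Itgax stayed close in G609G minus WT, at log2 folds of -0.46 and -0.43.

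Set against the mean of Emr1, Csf1r and Cd68 on the same array, the members stood in a different order under the 2 alleles. Resident and lipid-associated genes were interleaved under both. In G609G all 7 other members were higher than WT on this ratio. Emr1, Csf1r and Cd68 themselves lay at percentiles 2.5, 5.7 and 8 of all folds in G609G minus WT. Most genes would thus be higher on this ratio, and the share over all genes was not computed. The differences of the 7 members were 1.21 for Itgax, 1.18 for Gpnmb, 1.16 for Cd163, 0.57 for Trem2, 0.51 for Lyz1, 0.42 for Lyz2 and 0.28 for Mrc1. Between LCS and WT the same differences were 0.51 for Cd163, 0.28 for Itgax and 0.25 for Lyz1, 0 for Lyz2, and -0.12 for Gpnmb, -0.23 for Mrc1 and -0.86 for Trem2. Only Lyz2 overlapped WT in LCS, and no member overlapped WT in G609G. The share of all genes without overlap on this ratio was not computed for either mutant. In LCS minus WT Emr1, Csf1r and Cd68 lay at percentiles 88.9, 81.1 and 88.6 of all folds. Most genes would thus be lower than WT on this ratio in LCS. A dim gene such as Itgax falls less on the log2 scale as it nears background, and how far this enters its G609G value was not tested.

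**Figure D3:**
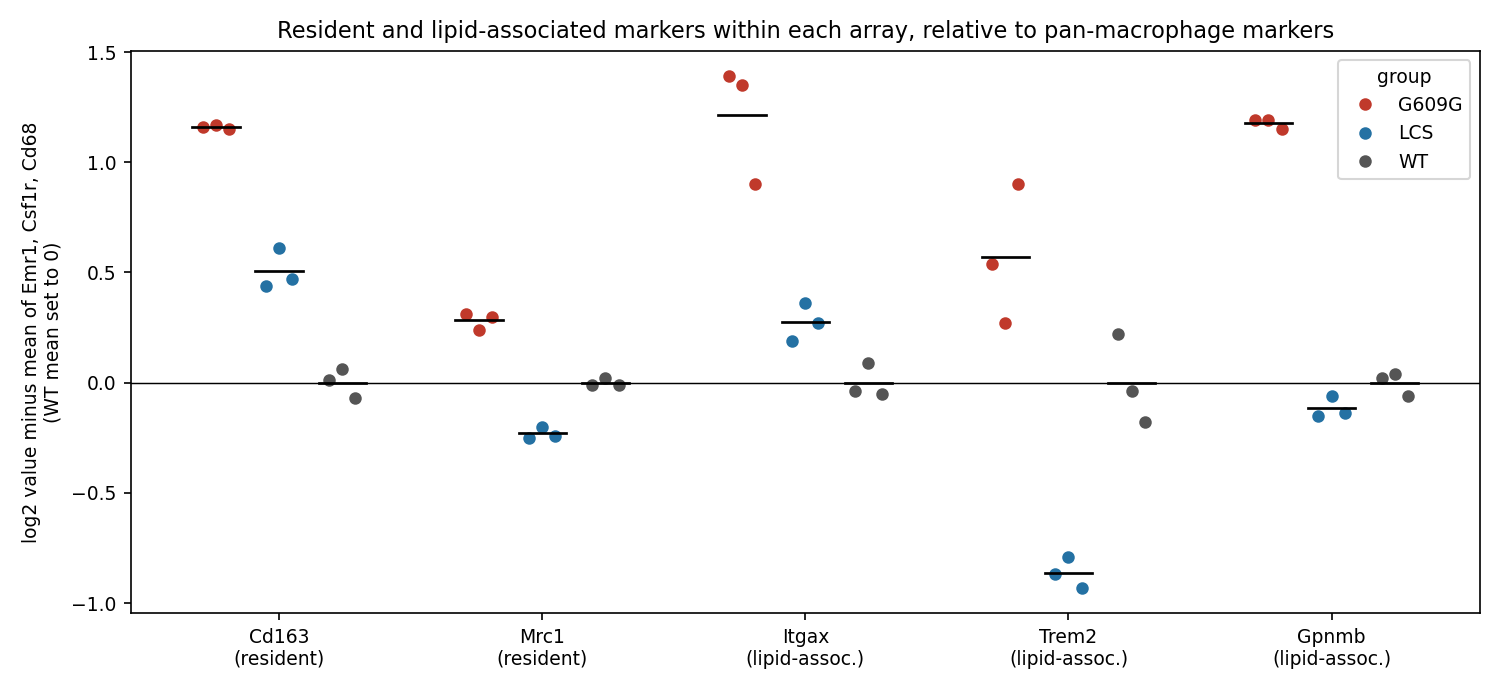
Log2 value of Cd163, Mrc1, Itgax, Trem2 and Gpnmb minus the mean of Emr1, Csf1r and Cd68 on the same array, less the WT mean of that difference (vertical axis). Points are G609G, LCS and WT arrays, and bars are group means. In G609G all the plotted genes lie above WT, by 0.28 for Mrc1 up to 1.21 for Itgax. In LCS minus WT Trem2 lies at -0.86 while Cd163 lies at 0.51.

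The exon arrays also show whether the probe sets of a gene moved together. Of the 188 member probe sets 168 passed the intensity filter of 5.13 log2 units. They did so for most genes in LCS. All 23 Cd163 probe sets were higher in LCS, 22 of them without overlap, and all 7 Trem2 probe sets were lower, 5 of them without overlap. Over all probe sets above the filter 57.7% were higher in LCS than in WT, 21.2% without overlap, and 41.9% were lower, 13.7% without overlap. Of the 32 Mrc1 probe sets 24 were higher and 7 lower in LCS. By limma's diffSplice, which tests a probe set against the others of its gene, 3 of 168 member probe sets (1.79%) differed in LCS minus WT, where 1.8% of all tested probe sets did.

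In G609G the probe sets of a gene spread more widely. By diffSplice 46 of the 168 (27.4%) differed from their gene in G609G minus WT, where 15.8% of all tested probe sets did. In G609G minus LCS 54 did (32.1%), where 18.4% of all tested probe sets did. Most probe sets above the filter were still lower in G609G: 23 of 24 for Emr1, 29 of 29 for Csf1r, 31 of 32 for Mrc1, 22 of 23 for Cd163 and 15 of 16 for Gpnmb, where 79.3% of all probe sets were lower. The Emr1 probe set 5340055 measured 8.51, 8.60 and 8.16 in G609G, 8.98, 8.79 and 8.72 in LCS and 8.44, 8.34 and 8.44 in WT. G609G overlapped WT there, with a log2 fold of 0.01, which is 2.11 above the rest of the gene (diffSplice adjusted p = 4.09e-13). The Emr1 probe set 4963290 showed the opposite extreme, with a log2 fold of -3.03 and means of 4.68 in G609G, 8.22 in LCS and 7.71 in WT.

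Csf1r and Mrc1 each held a probe set in which G609G overlapped WT as well. For Csf1r, probe set 5296087 averaged 10.69 in G609G, 11.08 in LCS and 10.91 in WT, 1.41 above its gene in G609G minus WT (diffSplice adjusted p = 1.01e-10). For Mrc1, probe set 5418019 averaged 9.30 in G609G, 9.47 in LCS and 9.25 in WT, 1.45 above its gene in G609G minus WT (adjusted p = 6.73e-14). Both stood well above the other probe sets of their gene in this comparison. Itgax showed both directions at once. Its probe set 4632138 measured 7.95, 8.03 and 7.91 in G609G, 7.86, 7.97 and 8.54 in LCS and 7.36, 7.28 and 7.02 in WT, higher in both mutants on every array. Its probe set 5126309 measured 3.97, 4.33 and 3.93 in G609G, 7.90, 7.67 and 8.21 in LCS and 6.36, 6.47 and 7.03 in WT, with G609G at the dim end. Trem2 ranged in G609G minus WT from -2.37 at probe set 4441376 to 0.01 at probe set 4693084. The part of the muscle transcripts, at 11.74 to 11.83 on the G609G arrays, in these probe sets was not tested.

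**Figure D4:**
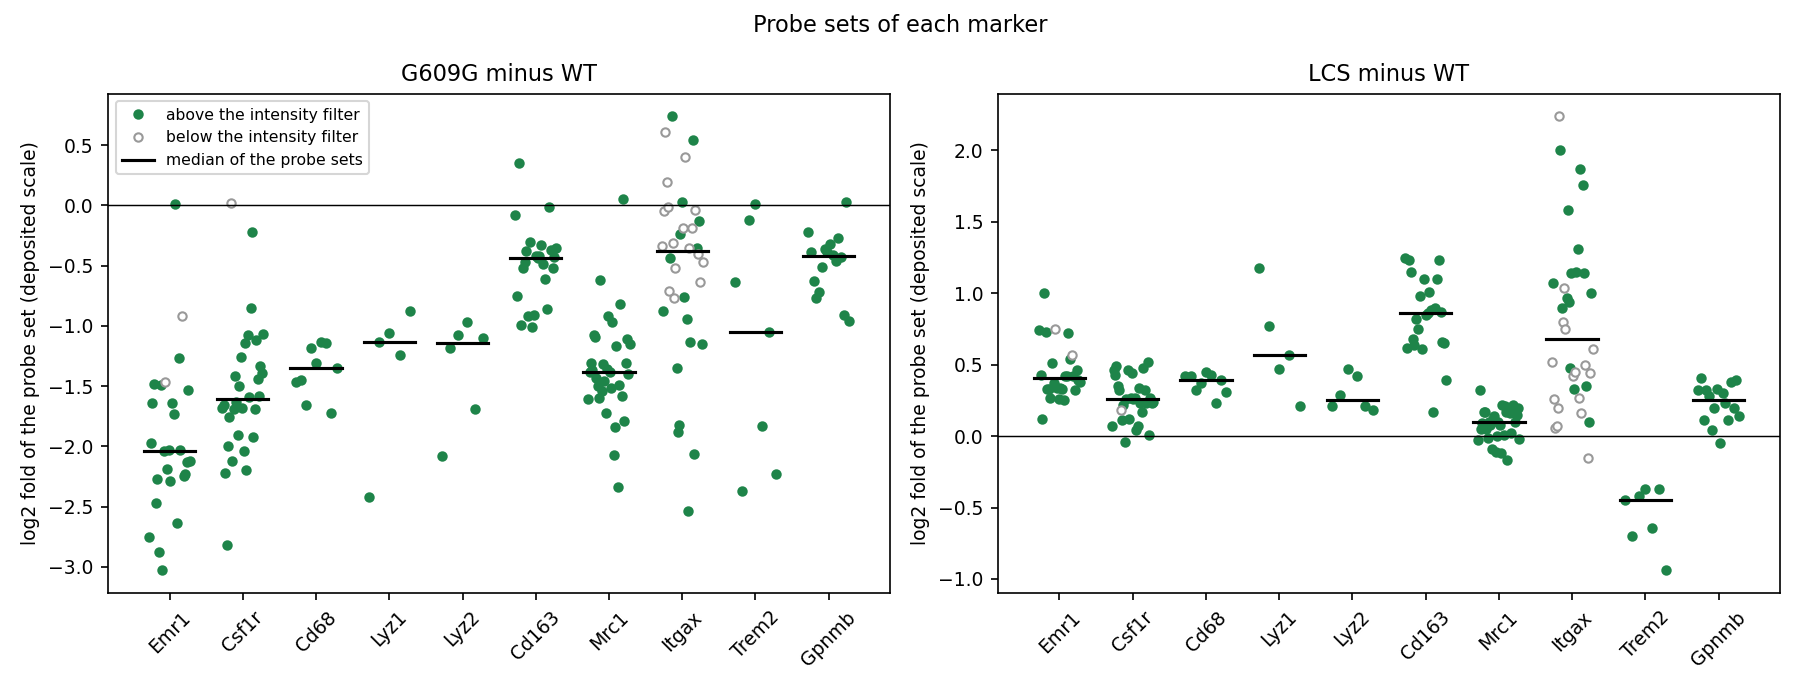
Log2 fold of every member probe set in G609G minus WT and in LCS minus WT (vertical axis), by gene along the horizontal axis; each point is 1 probe set, and its sideways place within a gene carries no information. In G609G the folds of Emr1 run from -3.03 to 0.01, whereas in LCS all 23 Cd163 probe sets lie above 0 and all 7 Trem2 probe sets below.

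Other macrophage genes were counted from lists chosen with earlier results of these data known. In G609G 71.3% of all genes fell and 8.26% rose, and relative to the median gene 36.7% fell and 34% rose. In LCS 22.5% of all genes rose and 13% fell. Of 23 core mononuclear phagocyte genes tested, 21 fell in G609G (median log2 fold -1.19), or 19 with 2 rising relative to the median gene, and 14 rose in LCS (0.33). Fcer1g, the Fc receptor gamma chain, was at -1.21 in G609G and 0.68 in LCS, and C1qb, a complement subunit, at -0.80 and 0.68 (limma adjusted p at most 4.46e-07 for Fcer1g and 8.4e-07 for C1qb). Of 17 resident and perivascular macrophage genes tested 14 fell and 1 rose in G609G (-1.25), or 13 and 4 relative to the median gene, and 13 rose in LCS (0.44). Folr2, the folate receptor of resident macrophages, fell by 2.28 in G609G and rose by 0.46 in LCS (limma adjusted p = 2.27e-12 and 0.000232). Lyve1, a hyaluronan receptor of resident macrophages and of lymphatic vessels, had a log2 fold of -0.10 in G609G (limma adjusted p = 0.0782) and 0.81 in LCS (adjusted p = 1.7e-08). Lyve1 was higher in G609G than in WT relative to the median gene, at 0.36 (limma adjusted p = 9.65e-07), where Cd163 was at -0.02. Of 21 lipid-associated and lysosomal genes tested 20 fell and 1 rose in G609G (median -0.68), or 14 and 4 relative to the median gene (median -0.21), and 15 rose and 1 fell in LCS (0.30). Cd9, a tetraspanin of lipid-associated macrophages, was at -0.44 in G609G and 0.48 in LCS (limma adjusted p = 1.42e-05 and 2.61e-05), and at 0.03 relative to the median gene in G609G (0.579). Spp1 (osteopontin) averaged 5.20 in G609G, 5.01 in LCS and 4.72 in WT, under the intensity filter over all arrays, and was not tested. Apoe, Lpl and Cd36 of that list are also abundant in fat cells.

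Ligands and partners of the receptors were lower in G609G, while in LCS their calls were mixed. All 10 tested genes of the CSF1 receptor and TREM2 pathways fell in G609G (median -1.03). Of all genes 71.3% fell there, and the median over all genes was -0.47. Relative to the median gene 9 of the 10 fell in G609G (median -0.56), where 36.7% of all genes did. In LCS 5 rose and 1 fell (0.31), where 22.5% and 13% of all genes did. Csf1 measured 6.99, 7.18 and 7.03 in G609G, 8.40, 8.26 and 8.57 in LCS and 7.98 on each WT array. Il34 measured 5.97, 6.23 and 6.20 in G609G, 7.87, 7.81 and 7.75 in LCS and 6.92, 7.06 and 7.18 in WT. For both ligands the 3 groups were separate and in the order of their receptor. Csf1 fell by 0.91 in G609G and rose by 0.43 in LCS (limma adjusted p = 2.63e-07 and 0.00145). Il34 fell by 0.92 and rose by 0.75 (limma adjusted p = 7.72e-07 and 3.09e-05). Relative to the median gene Csf1 was at -0.45 and Il34 at -0.46 in G609G minus WT (limma adjusted p = 0.000336 and 0.000368). Tyrobp, the adaptor DAP12 through which TREM2 signals, fell by 1.12 in G609G and rose by 0.40 in LCS (limma adjusted p = 4.68e-08 and 0.00315), so in LCS it moved opposite to Trem2. Adam10, a protease that can shed TREM2, fell by 1.49 in G609G (limma adjusted p = 6.95e-11) and was at 0.02 in LCS (0.846). Relative to the median gene Tyrobp was at -0.66 and Adam10 at -1.03 in G609G minus WT. Of 10 macrophage transcription factors tested 6 fell and 3 rose in G609G (-0.75), or 5 and 4 relative to the median gene, and 7 rose in LCS (0.42). Zeb2, a repressor that maintains macrophage identity, fell by 1.77 in G609G and rose by 0.26 in LCS (limma adjusted p = 3.98e-13 and 0.00101).

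Other cell types of the depot moved too. In G609G fibroblast genes fell for 6 of 7 (median -1.24), dendritic cell genes for 9 of 11 (-0.85) and adipocyte genes for 6 of 7 (-0.40), while endothelial genes fell for 2 and rose for 3 of 7 (-0.10), where 71.3% of all genes fell with a median of -0.47. On the scale relative to the median gene 5 fibroblast genes fell and 1 rose (median -0.78), 7 dendritic cell genes fell and 1 rose (-0.38), 3 adipocyte genes fell and 3 rose (0.07), and 1 endothelial gene fell and 6 rose (0.36). On that scale 36.7% of all genes fell and 34% rose. The members' median in G609G minus WT, -1.18, was thus close to that of fibroblast genes. In LCS fibroblast genes rose for 4 of 7 (0.24), dendritic cell genes for 5 of 11 (0.26), adipocyte genes rose for 4 and fell for 1 of 7 (0.08), and endothelial genes rose for 4 and fell for 1 of 7 (0.23). Of all genes 22.5% rose and 13% fell in LCS, with a median of 0.05. Dendritic cell genes averaged 6.76 to 6.78 in G609G, 7.68 to 7.71 in LCS and 7.39 to 7.45 in WT over 13 genes. Their part in the Itgax values was not tested.

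The genes most like a member were found over the 9 arrays by Pearson's r of values relative to the median gene, as a description. The arrays fall into 3 groups, so a high r mostly records the same group order. For Csf1r they were Epb4.1l1, Dlc1 and Etv5, and for Mrc1 they were Mtap7d3, Pgcp and Plxna1, all at r = 0.999. Gpnmb was most like Yes1 (r = 0.981), Thrb and Tap2 (0.977 each). Trem2 had weaker likeness, to Dhx33 (r = 0.951), Asrgl1 and Akap7 (0.934 each), and these 3 genes were lower than WT in both mutants relative to the median gene, as Trem2 was. None of these genes was on the macrophage lists.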

How the data were processed

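Total RNA of perigonadal white adipose tissue was labelled with biotin and measured on 1-colour Affymetrix exon arrays, per the labels' protocols. On 9 arrays the authors deposited a log2 intensity for each of 229581 probe sets; their normalization and summary method were not given in the sources used here, and an offset left by normalization would move every gene of a group alike. The design text speaks of 10 samples, and 9 were analysed here. The submitters' processing notes name build mm9.

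Arrays were grouped by title. Probe sets with exactly 1 symbol in the platform annotation were summarised per gene by median polish. Of 15123 genes with 3 or more probe sets, the 11342 whose mean exceeded the 25th percentile (5.09) entered the test, all 10 members among them; probe sets above 5.13 entered diffSplice. Tests used limma (lmFit, eBayes with trend) on all 9 arrays, and p-values were adjusted by Benjamini-Hochberg over all genes or probe sets, with a threshold of 0.05. For the scale relative to the median gene, each array's median deviation of the tested genes from their means was subtracted. Percentiles rank a fold among all genes tested.

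The members, the gene lists and the tests were chosen with earlier results of these data known. Named genes are the 10 members, the up to 3 brightest genes of each list plus a fixed set around the CSF1 receptor and TREM2 pathways, the 3 likest genes of 4 members, and the lowest and highest probe set of a member; not all are described.

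Same-numbered G609G and WT arrays deviated together from their group means (r = 0.168, 0.145 and 0.337), so the numbers may mark pairs in that comparison. The main tests did not use such pairs, and a replicate block was run only as an alternative. In the comparisons with LCS r ranged from -0.121 to 0.204, and the arrays share only a number. Identical values made up at most 1.89% of any pair of arrays. Alternatives covered the gene summary, normalization, scaling, filters, variance model, arrays in the fit, a replicate block, leaving out each array, and the methods' t-test. On simulated data for G609G minus WT with 11342 genes, limma recovered 78% of genes changed by 0.5 and 98% of those changed by 1 on the log2 scale, and 3.83% of the genes called were false. Only 100 genes were changed at each size, with independent noise and no shift of all genes. In the data 79.5% of genes were called in G609G minus WT, so these rates do not carry over to those calls. The software was R 4.3.3 with limma 3.58.1 and the package data.table in version 1.17.8, and Python 3.11.15 with matplotlib 3.10.9.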

Additional observations from a re-analysis of the deposited data

How the results depend on the processing

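Of the member log2 folds over all comparisons and alternatives, 649 kept direction and side of the threshold, 22 kept direction and lost the call, 1 gained it and 3 reversed: Cd163 in G609G minus WT with quantile normalization (0.02, limma adjusted p = 0.7), Itgax in G609G minus WT relative to the median gene (0.04, 0.76) and Trem2 in G609G minus LCS with quantile normalization (0.03, 0.883). The methods' t-test, at a fold of 1.5 and p of 0.05 before or after Benjamini-Hochberg, called 7 members in G609G minus WT (all lower), 3 between LCS and WT (all higher in LCS) and 9 between G609G and LCS (all lower in G609G). The replicate block changed no member call (10, 9 and 10, for G609G over WT, LCS over WT and G609G over LCS) and gave 47, 3 and 56 member probe sets by diffSplice. The lipid-associated minus resident difference, in the order G609G over WT, LCS over WT and G609G over LCS, was 0.19, -0.31 and 0.50 with genes as means of probe sets, 0.20, -0.31 and 0.51 with quantile normalization, 0.15, -0.63 and 0.78 without Itgax, 0.59, -0.25 and 0.85 for Trem2 and Gpnmb against Mrc1, and 0.14, -0.20 and 0.34 from probe sets above the intensity filter, the last chosen after the data were seen. With genes as medians of centred probe sets it was -0.31 for LCS over WT and 0.59 for G609G over LCS. A filter at the 50th percentile left 1 member probe set called in LCS minus WT. Leaving out each array gave differences of 0.24 to 0.31, -0.39 to -0.27 and 0.57 to 0.66, 9 to 10, 7 to 9 and 9 to 10 members called, with Itgax under the intensity filter and not tested in some of these fits, and 29 to 62, 0 to 5 and 34 to 69 member probe sets called, the lowest without WT replicate 2 in G609G minus WT and without LCS replicate 3 in G609G minus LCS. The causes of these changes were not tested. Dim genes limit the rest: Itgax lies near the intensity filter, where a fold may understate the change.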

Other observations

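A leukocyte marker outside the macrophage lists, Klrb1c, moved further than any member in both mutants. Folds within the lipid-associated and lysosomal list also went further, to -3.61 in G609G and 1.17 in LCS. Klrb1c, which encodes the natural killer receptor NK1.1, measured 4.44, 4.84 and 5.15 in G609G, 9.58, 9.23 and 9.73 in LCS and 7.71, 7.75 and 7.95 in WT. The groups were far apart, and Klrb1c fell by 2.99 in G609G and rose by 1.71 in LCS (limma adjusted p = 4.17e-10 and 1.13e-06), with the G609G mean of 4.81 under the intensity filter. Of the 5 T, B and natural killer cell genes tested 4 fell in G609G (71.3% of all genes did) and 3 rose in LCS (22.5% of all genes did). Relative to the median gene 3 fell and 1 rose in G609G, where 36.7% and 34% of all genes did. The log2 folds of these 5 genes in LCS ran from -0.24 to 1.71. Cd3e, a subunit of the T cell receptor complex, had log2 folds of -0.05 in G609G and 0.17 in LCS, neither past the test (limma adjusted p = 0.63 and 0.142). Cd3e rose by 0.42 in G609G relative to the median gene (limma adjusted p = 0.000387).

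Of 8 monocyte genes tested 6 fell in G609G, a share near the 71.3% of all genes, while in LCS 6 rose and 1 fell, where 22.5% and 13% of all genes did. Set against the median gene, 5 of them fell in G609G and 2 rose, where 36.7% and 34% of all genes did. The one that fell in LCS was Plac8, a gene of monocytes and other leukocytes, which measured 8.58, 8.59 and 8.69 in G609G, 8.48, 8.11 and 8.22 in LCS and 9.37, 9.27 and 9.56 in WT. Like Trem2, Plac8 lay below WT in both mutants. Its log2 fold was -0.78 in G609G and -1.13 in LCS (limma adjusted p = 3.02e-06 and 3.64e-07). Vcan, a proteoglycan of monocytes and fibroblasts, fell by 0.98 in G609G and rose by 0.95 in LCS (limma adjusted p = 1.51e-06 and 1.07e-05). Of 4 neutrophil genes tested, 2 fell and 1 rose in G609G, where 71.3% and 8.26% of all genes did, or 1 and 2 relative to the median gene. In LCS 1 fell and 1 rose, where 13% and 22.5% of all genes did. Among them Mmp9 (gelatinase B) fell by 1.37 in G609G (limma adjusted p = 8.54e-08), and Ltf (lactoferrin), which glands also secrete, fell by 1.77 in LCS (limma adjusted p = 1e-08). Of 3 mast cell genes tested 2 fell in G609G, where 71.3% of all genes did, and 2 rose in LCS, where 22.5% did. Relative to the median gene 1 fell and 1 rose in G609G, where 36.7% and 34% of all genes did. On that scale 1 rose in LCS, where 22.3% of all genes did.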
